A study of Rattus norvegicus with 10 samples.

Results

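The microRNAs (miRNAs) miR-130a, miR-130b, miR-301a and miR-301b form a family that was followed here in left ventricles of rats after infusion of saline or dexmedetomidine (DEX). The list held 8 names out of 761 rat miRNAs on the chip, namely the 3p and the 5p arm of each, matched by name in the scanner output. It was built around rno-miR-301b-3p, which was selected on its p-value and fold change between the groups on these same 10 arrays. The group difference of rno-miR-301b-3p is therefore a description with no test, and the question was whether its seed relatives and partner arms moved with it. The animals were male Wistar rats of 250 to 350 g, and their age was not given in the sources used here. The Control group had saline, and the DEX group had dexmedetomidine, a sedative agonist of alpha2 adrenergic receptors, for 30 min. Per the paper, DEX was given at a loading rate and then at a lower maintenance rate, followed by a saline washout. RNA of the anterior wall was taken after that, and each group had 5 rats with 1 array each. Sevoflurane and butorphanol are described for the rats that underwent ischemia, and anesthesia of the array rats is not stated separately. In bulk tissue, fewer cells of a type and less RNA per cell cannot be told apart.

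A miRNA precursor folds into a hairpin from which a 5p and a 3p arm are cut, and the arm kept in the silencing complex pairs with mRNAs mainly through its seed, bases 2 to 8 from the 5′ end. In the miR-130 and miR-301 family the 3p arm is the usual guide. The family is known for repressing the nuclear receptor Pparg and for its role in proliferation of pulmonary vascular cells, and miR-130a for repressing the gap junction protein connexin 43 in cardiac muscle.

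RefSeq mature sequences (GRCr8) matched 7 of the 8 members, all but rno-miR-301a-3p. The 3p arms are shown first because they carry the family seed, in capitals.
rno-miR-301b-3p: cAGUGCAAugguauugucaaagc
rno-miR-130b-3p: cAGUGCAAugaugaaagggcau
rno-miR-130a-3p: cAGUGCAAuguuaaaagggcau
These 3 shared the seed AGUGCAA, and no other of the 724 mature entries in the table had it. All 3 were identical over their first 10 bases. The miR-130a and miR-130b arms matched at 20 of 22 positions and differed by U11A and A13G (positions from the 5′ end, rno-miR-130a-3p first). The miR-301b arm matched rno-miR-130b-3p at 12 and rno-miR-130a-3p at 13 of 22 positions, with every difference in the 3′ part.

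The 5p arms are shown because they come from the same hairpins but have other bases at positions 2 to 8, in capitals.
rno-miR-301b-5p: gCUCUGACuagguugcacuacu
rno-miR-301a-5p: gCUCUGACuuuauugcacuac
rno-miR-130b-5p: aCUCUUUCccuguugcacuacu
rno-miR-130a-5p: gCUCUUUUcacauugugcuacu
Both miR-301 5p arms had CUCUGAC there, and the miR-130 5p arms had CUCUUUC and CUCUUUU. The family seed was thus found in the 3 3p arms with a sequence and in none of the 5p arms, which are listed as partners.

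The hairpins lie at 3 places of the GRCr8 genome. Mir301b (chr11:97384033-97384110, plus strand) and Mir130b (chr11:97384380-97384461, plus strand) are neighbours with 269 bases between them. Mir130a lies at chr3:90229228-90229315 on the minus strand, and Mir301a at chr10:72422599-72422698 on the plus strand. Rno-miR-130b-3p is therefore both a neighbour and a seed relative of rno-miR-301b-3p.

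Values are normalized signals: the level of blank spots was subtracted, and each array was scaled to a median of 25 over its detected miRNAs. An undetected miRNA was set to the lowest detected signal of its array, the floor, which lay between 3.64 and 5.09. Per array, 483 to 533 miRNAs were detected. DEX 1 was the dimmest array before scaling (median of detected miRNAs 17.3 over blank, against 35.4 to 53.5 on the others). Slide 1 held Control 1 to 4, slide 2 held Control 5 with DEX 1 to 3, and slide 3 held DEX 4 and 5, so slide and group were largely entangled. All 5 heart muscle markers (miR-1-3p, miR-133a-3p, miR-133b-3p, miR-208a-3p and miR-499-5p) were detected on every array.

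Of the 8 members, 5 were detected on all 10 arrays, namely the 4 3p arms and rno-miR-130b-5p. Rno-miR-130a-5p was detected on 7 arrays. Rno-miR-301a-5p was detected on 2, at 8.01 on Control 3 and 7.36 on DEX 1, and rno-miR-301b-5p on 1, at 5.51 on Control 2. A test required detection on at least 5 arrays, which 6 of the 8 members met, so neither miR-301 5p arm could be followed.

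Rno-miR-301b-3p (MIMAT0005304) gave 14.7, 14.5, 6.63, 7.65 and 8.72 in Control rats 1 to 5, and 19.2, 12.4, 10.2, 15.4 and 20.9 in DEX rats 1 to 5. DEX 1, DEX 4 and DEX 5 lay above the whole Control range, while DEX 2 and DEX 3 fell between the higher and the lower Control arrays, so the groups overlapped. The paper lists rno-miR-301b-3p as up-regulated after DEX. On the values processed here, the methods' t-test at its p and fold limits did not call it, and which limit it missed is not given. The ratio of the group means, DEX over Control, was 1.495, below the fold limit of 1.5. The log2 difference was 0.61 ± 0.27 (SE, n = 5 in each group). Of the tested members only rno-miR-301b-3p was at least 1.5-fold apart on the log2 means, as were 18 of the 503 tested miRNAs (3.58%), and it was chosen for that difference. Its signal was low, at 1.59 to 4.10 times the floor. On the same scale, spots that carry no probe had a median of 17.6 on DEX 4 and 16.7 on DEX 5, while the remaining 8 arrays ranged from -1.15 to 5.29, so that rno-miR-301b-3p was below that median on DEX 4 and above it on DEX 5. The part of this signal in the group difference was not tested. On the log2 scale it was 0.52 higher in DEX without DEX 1, 0.44 without slide 3 and 0.62 within slide 2, where a single Control array stood against 3 DEX arrays. The value was 0.40 without scaling between arrays, 0.35 with array weights, 0.11 after normexp background correction and 0.081 with no background correction. Normexp here adds an offset of 50, and no correction leaves the blank level in. Either makes log2 differences of dim miRNAs smaller, so these values are not on the scale of the others.

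Rno-miR-301a-3p (MIMAT0000552), the closest relative by name, gave 41.3, 40.4, 24.3, 29.7 and 51.2 in Control rats 1 to 5, and 54.5, 40.3, 35.8, 38.0 and 62.3 in DEX rats 1 to 5. Only DEX 1 and DEX 5 exceeded the Control range, and the other 3 DEX arrays were inside it. On the log2 scale the groups differed by 0.32 ± 0.22 (SE, n = 5 in each group), with a limma adjusted p of 0.906. Within slide 2 it was -0.26, where Control 5 had the highest Control signal. It was 0.11 without scaling between arrays, 0.21 with array weights, 0.085 with no background correction and 0.026 with normexp.

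Rno-miR-130b-3p (MIMAT0000837), the genomic neighbour, gave 49.8, 52.0, 32.4, 52.3 and 59.0 in Control rats 1 to 5, and 47.1, 54.3, 55.5, 47.1 and 71.4 in DEX rats 1 to 5. DEX 5 was above the Control range, the other DEX arrays were inside it, and Control 3 was the lowest array of all. The log2 difference was 0.18 ± 0.18 (SE, n = 5 in each group; limma adjusted p = 0.906). Without Control 3 it was 0.033, and within slide 2 it was -0.18.

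Rno-miR-130a-3p (MIMAT0000836), known from connexin 43, gave 459, 422, 355, 428 and 564 in Control rats 1 to 5, and 563, 511, 453, 398 and 508 in DEX rats 1 to 5. Every DEX array lay inside the Control range. The log2 difference was 0.13 ± 0.16 (SE, n = 5 in each group; limma adjusted p = 0.906). It was 0.056 without Control 3 and -0.15 within slide 2.

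The 4 3p arms thus all had higher means in DEX. The same direction was found for 298 of the 503 tested miRNAs (59.2%), with a median log2 difference of 0.044. Relative to that median, the 3p arms stood at 0.57 (rno-miR-301b-3p), 0.27 (rno-miR-301a-3p), 0.13 (rno-miR-130b-3p) and 0.089 (rno-miR-130a-3p). Without scaling between arrays the median of all tested miRNAs was -0.16, and the differences of rno-miR-130a-3p and rno-miR-130b-3p were -0.072 and -0.029.

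**Figure D1:**
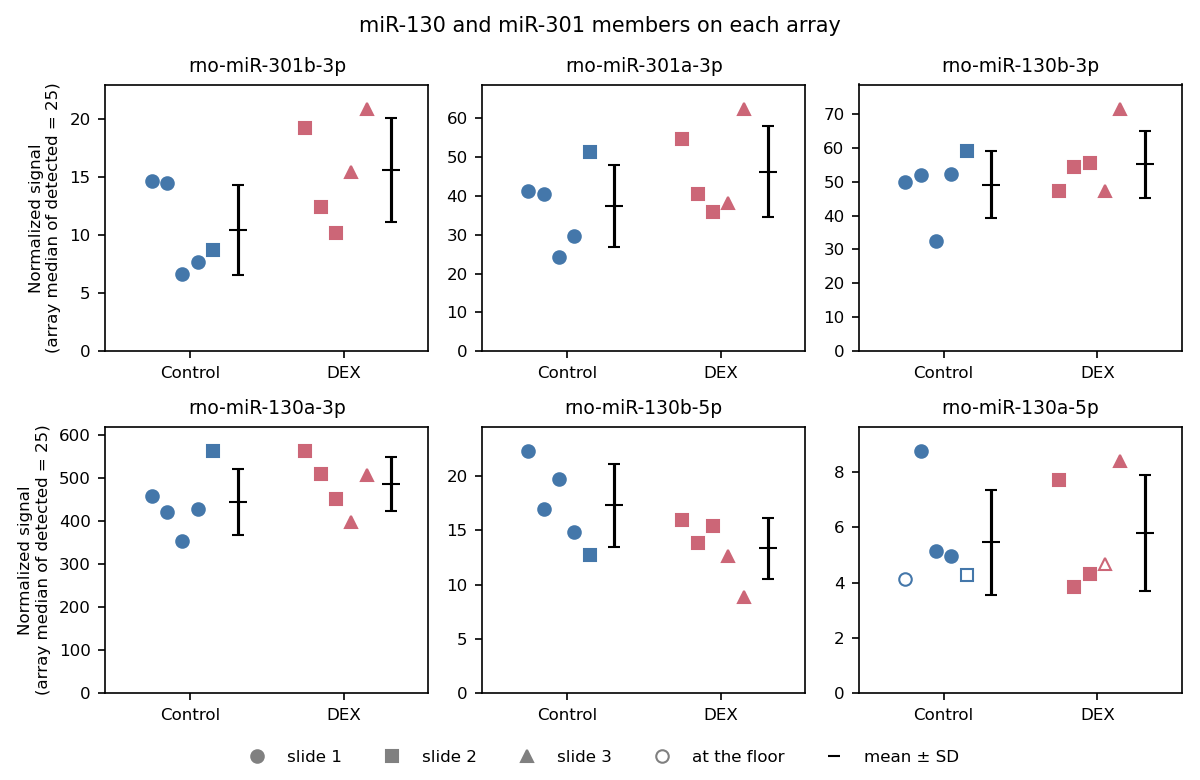
Normalized signal (vertical axes, linear, from 0) of the 6 tested members on each Control and DEX array, with the slide shown by the symbol, signals at the floor as open symbols, and the mean ± SD of each group beside the points. The groups overlap in all 6 panels, and rno-miR-130b-5p is the member with the lower mean in DEX.

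Among the partner arms, rno-miR-130b-5p (MIMAT0017122) gave 22.3, 17.0, 19.7, 14.8 and 12.7 in Control rats 1 to 5, and 15.9, 13.8, 15.4, 12.6 and 8.87 in DEX rats 1 to 5. All DEX arrays lay below the Control mean of 17.3, and DEX 4 and DEX 5 lay below the lowest Control array. The log2 difference was -0.38 ± 0.20 (SE, n = 5 in each group; limma adjusted p = 0.906), of opposite sign to that of its own 3p arm. It was the 1 tested member of 6 with a lower mean in DEX, a direction that 205 of 503 miRNAs (40.8%) had. This log2 difference was -0.17 without slide 3 and 0.24 within slide 2, and the signals on DEX 4 and DEX 5 were below the median of the spots with no probe there.

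Rno-miR-130a-5p (MIMAT0017121) was close to the floor. It gave 4.13, 8.76, 5.15, 4.96 and 4.27 in Control rats 1 to 5, and 7.71, 3.86, 4.31, 4.67 and 8.41 in DEX rats 1 to 5, of which Control 1, Control 5 and DEX 4 were at the floor. The higher signals occurred in both groups (Control 2, DEX 1 and DEX 5). Signals were below the median of the spots with no probe on DEX 4 (17.6) and DEX 5 (16.7). The same held on Control 1 and Control 5, where the signal was at the floor. The log2 difference was 0.070 ± 0.26 (SE, n = 5 in each group; limma adjusted p = 0.955), and -0.083 with undetected signals left missing.

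Across the 503 tested miRNAs, 0 (0%) passed an adjusted p of 0.05 in limma, which includes 0 of the 5 members other than rno-miR-301b-3p. Before adjustment 15 miRNAs (2.98%) were under 0.05, of which 7 (1.39% of those tested) were higher in DEX, and 0 of those 5 members were among them. Their median log2 difference was 0.13, and 4 of the 5 had higher means in DEX. Ranges that did not overlap between the groups were found for 3 miRNAs (0.596%) and for 0 of the 6 tested members.

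**Figure D2:**
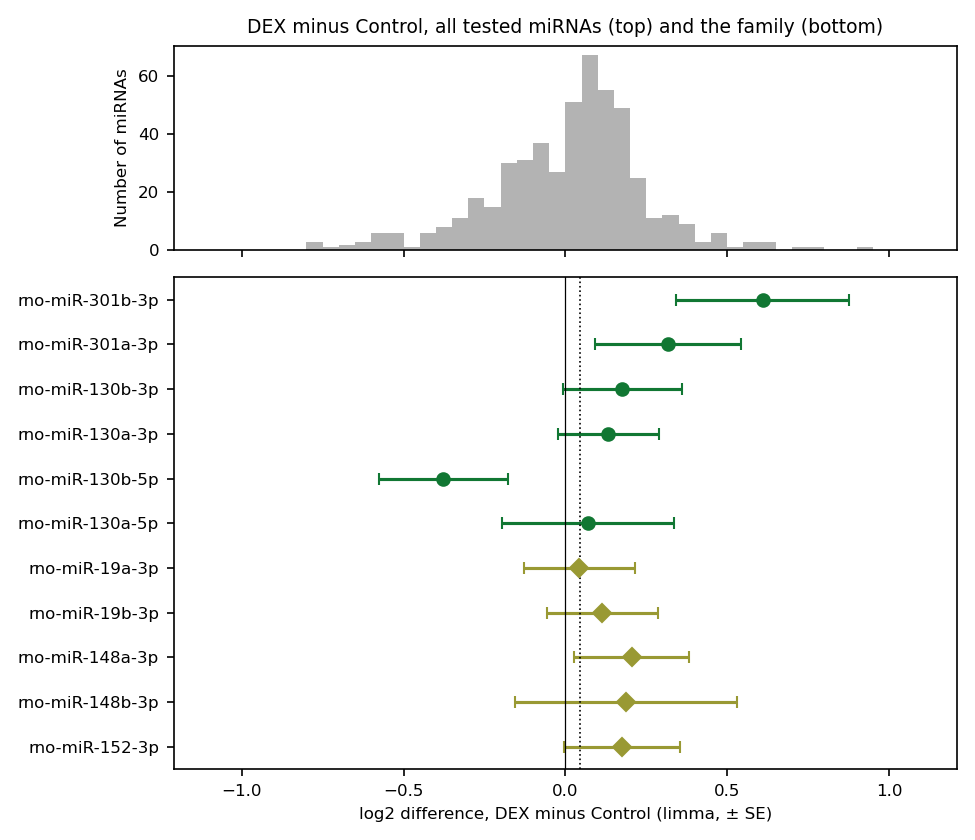
Top, number of tested miRNAs (503) by log2 difference, DEX minus Control. Bottom, log2 difference ± SE of the 6 tested members (circles) and of 5 relatives with a shifted seed (diamonds), with a dotted line at the median of all tested miRNAs, 0.044. The members run from -0.38 (rno-miR-130b-5p) to 0.61 (rno-miR-301b-3p).

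Arms of the same hairpin were then compared within each array, as log2 signal of the 3p arm minus that of the 5p arm. Probes differ in how well they bind, so only the change between groups can be read. For miR-130b this arm difference was 1.16, 1.62, 0.72, 1.82 and 2.22 in Control rats 1 to 5, and 1.57, 1.97, 1.85, 1.90 and 3.01 in DEX rats 1 to 5. DEX 5 exceeded the Control range and the other DEX arrays were inside it. On DEX 4 and DEX 5 the signals of rno-miR-130b-5p and rno-miR-130a-5p were below the median of the spots with no probe. The DEX mean was 0.55 higher (two-sided exact permutation test, p = 0.175, adjusted p = 0.349 over 2 arm pairs, smallest possible p = 0.00794). The difference was 0.32 without DEX 5, 0.29 without slide 3 and -0.42 within slide 2. For miR-130a the arm difference was 6.39 ± 0.57 in Control and 6.46 ± 0.44 in DEX (SD over 5 arrays each). The means were 0.063 apart (two-sided exact permutation test, p = 0.841, adjusted p = 0.841), with the 5p arm at the floor on 3 arrays. Given as a description over 10 arrays, the deviations of the miR-130b arms from their group means had r = -0.66, and those of the miR-130a arms r = 0.058.

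**Figure D3:**
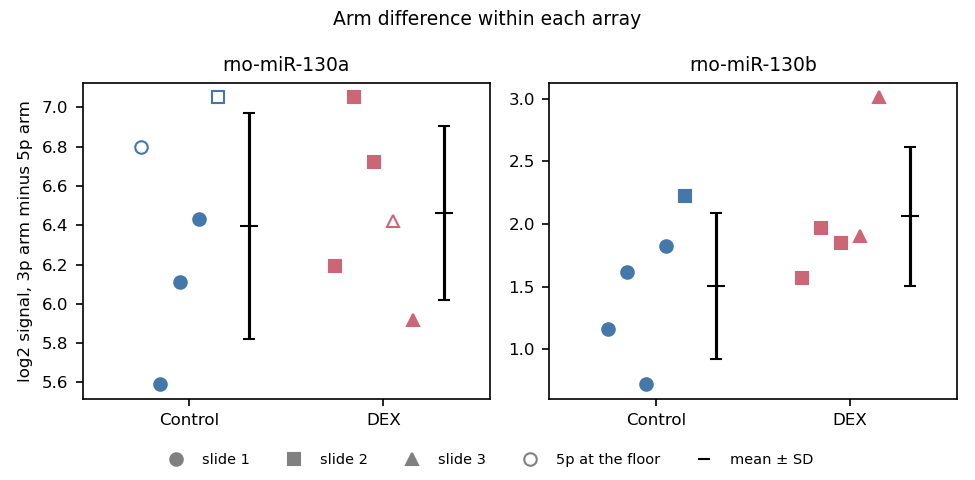
Log2 signal of the 3p arm minus that of the 5p arm (vertical axes, log2 units) on each array for miR-130a and miR-130b, with the slide shown by the symbol, open symbols where the 5p arm was at the floor, and the mean ± SD of each group. For miR-130b, DEX 5 stands highest at 3.01, and its 5p signal was below the median of the spots with no probe.

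Whether members followed rno-miR-301b-3p from array to array was asked apart from the group difference, with deviations of the log2 signal from each group's mean. Rno-miR-301a-3p had the highest correlation of the 5 members compared (Pearson r = 0.719, permutation p = 0.0354, adjusted p = 0.177 over 5 relations). Its Spearman rho was 0.697 (permutation p = 0.0505, adjusted p = 0.252). Both miRNAs were below their group means on Control 3, Control 4, DEX 2 and DEX 3 and above them on Control 1, Control 2, DEX 1 and DEX 5. They parted on Control 5, where rno-miR-301a-3p deviated by 0.50 and rno-miR-301b-3p by -0.18, and on DEX 4 (-0.24 and 0.030). Without Control 5, r was 0.932 (adjusted permutation p = 0.0233). Without Control 3 and Control 4, whose signal of rno-miR-301b-3p was farthest from the median, r was 0.482. Without Control 1 and Control 2, farthest from the median of its deviations, r was 0.79. The relation thus rested in part on Control 3 and Control 4, and the slides held at most 4 arrays, too few for a value within a slide.

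The neighbour rno-miR-130b-3p had r = 0.365 (permutation p = 0.38, adjusted p = 0.542) and rho = 0.358 (permutation p = 0.352, adjusted p = 0.475). Rno-miR-130a-3p had r = 0.31 (permutation p = 0.433, adjusted p = 0.542) and rho = 0.345 (permutation p = 0.38, adjusted p = 0.475). Without Control 3 and Control 4 these r values were -0.028 and -0.085. With blank subtraction neither relation passed the threshold, and whether their correlations differed from that of rno-miR-301a-3p was not tested.

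Of the 5p arms, rno-miR-130a-5p had r = 0.599 (permutation p = 0.0891, adjusted p = 0.223) and rho = 0.345 (permutation p = 0.325, adjusted p = 0.475), with r = 0.726 without Control 3 and Control 4. Rno-miR-130b-5p had r = -0.055 (permutation p = 0.884, adjusted p = 0.884) and rho = 0.042 (permutation p = 0.923, adjusted p = 0.923). Its r was -0.013 without Control 3 and Control 4, and -0.607 without Control 1 and Control 2. After normexp background correction, r was -0.726 for rno-miR-130a-3p, -0.809 for rno-miR-130b-3p, 0.844 for rno-miR-130b-5p and 0.878 for rno-miR-130a-5p, with adjusted permutation p from 0.0003 to 0.0374, so that these 4 relations depended on the background correction.

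Among the members themselves, given as a description over 10 arrays, the deviations of rno-miR-301a-3p had r = 0.811 with those of rno-miR-130a-3p and 0.70 with those of rno-miR-130b-3p. The r between rno-miR-130a-3p and rno-miR-130b-3p was 0.608. These 3 values were higher than the r of either miR-130 guide with rno-miR-301b-3p, a difference that was not tested.

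**Figure D4:**
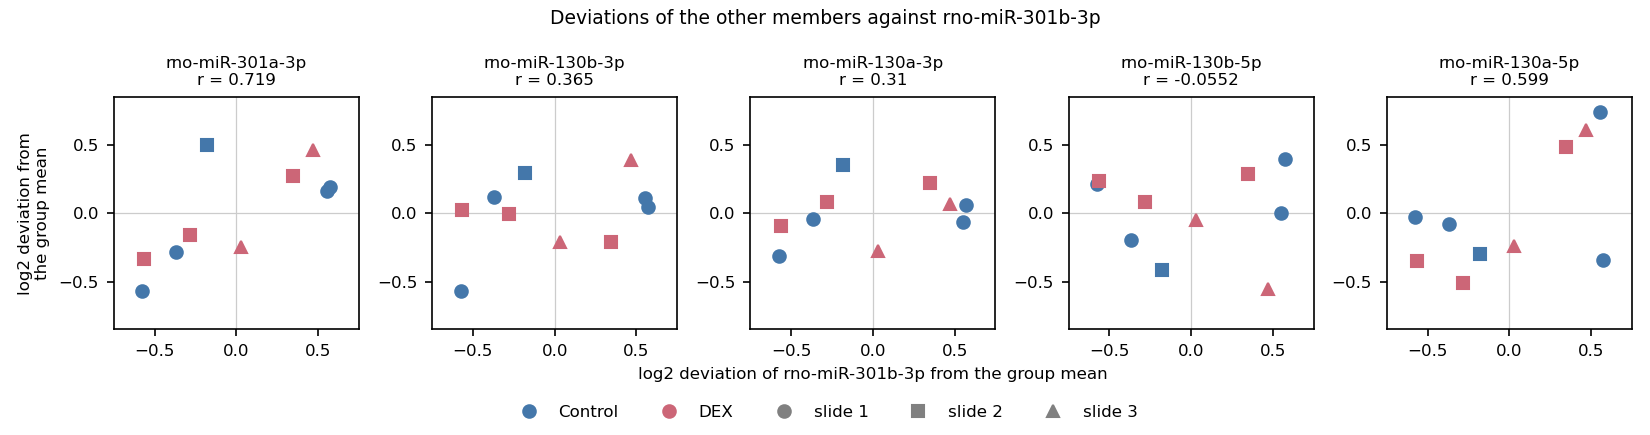
Log2 deviation from the group mean of each other tested member (vertical axes) against that of rno-miR-301b-3p (horizontal axes), 1 point per array, with the group shown by the colour and the slide by the symbol. Rno-miR-301a-3p has the highest r, 0.719, and rno-miR-130b-5p the lowest, -0.055.

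Many miRNAs outside the family deviated on the same arrays. Over the 500 other tested miRNAs with a value on every array, the median r with rno-miR-301b-3p was 0.439, with quartiles of 0.125 and 0.59. By r, rno-miR-301a-3p ranked 54, rno-miR-130a-5p 119, rno-miR-130b-3p 283, rno-miR-130a-3p 308 and rno-miR-130b-5p 429 of 500. The summed signal of 2 endothelial markers (miR-126a-3p and miR-126a-5p) had r = 0.722 with rno-miR-301b-3p, that of the 5 heart muscle markers 0.549, and that of 6 blood cell markers (miR-451-5p, miR-144-3p, miR-486, miR-223-3p, miR-142-3p and miR-150-5p) 0.478. All markers were detected on every array. The endothelial sum ranged from 4360 to 5783 in Control and from 4370 to 6739 in DEX, the heart muscle sum from 32200 to 46000 and from 31080 to 44980, and the blood sum from 1263 to 1753 and from 1100 to 1931. The median log2 differences of the lists were 0.068, 0.14 and 0.12, in that order, with 2 of 2, 4 of 5 and 4 of 6 markers higher in DEX and 0 past the adjusted threshold. Within the blood list the red cell miRNAs rno-miR-144-3p and rno-miR-451-5p had log2 differences of -0.75 ± 0.36 and -0.59 ± 0.33 (SE). A further miRNA of the blood list, rno-miR-486, had 0.019 ± 0.14 (limma adjusted p = 0.974). The leukocyte miRNAs rno-miR-150-5p, rno-miR-142-3p and rno-miR-223-3p had 0.21 ± 0.15, 0.29 ± 0.18 and 0.34 ± 0.25. Limma adjusted p was 0.906 for rno-miR-144-3p, rno-miR-451-5p and the leukocyte miRNAs. The part of these cell types in the members' values was not tested.

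**Figure D5:**
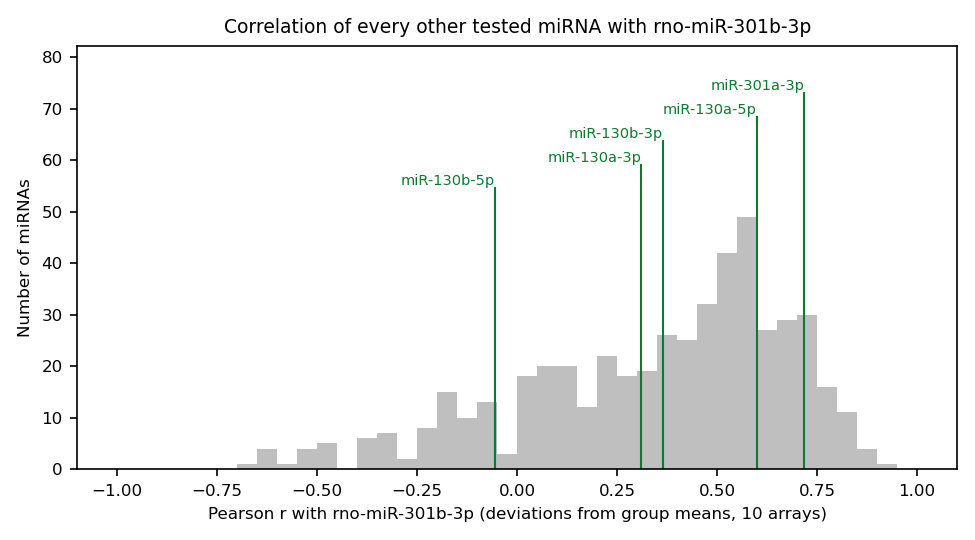
Number of tested miRNAs (500) by Pearson r of their deviations with those of rno-miR-301b-3p over 10 arrays (horizontal axis), with the 5 other tested members as vertical lines. Rno-miR-301a-3p and rno-miR-130a-5p lie above the median of 0.439, and the other 3 members lie below it.

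The miRNAs most like rno-miR-301b-3p, by Pearson r of the deviations over 10 arrays, were rno-miR-362-3p (0.944), rno-miR-350 (0.896), rno-miR-770-5p (0.894), rno-miR-349 (0.871) and rno-miR-383-5p (0.851). The first 3 were detected on all 10 arrays, rno-miR-349 on 8 and rno-miR-383-5p on 5. Their group differences went both ways. The log2 difference was -0.40 ± 0.20 (SE) for rno-miR-362-3p, 0.25 ± 0.20 for rno-miR-350, 0.13 ± 0.15 for rno-miR-770-5p, 0.036 ± 0.32 for rno-miR-349 and -0.28 ± 0.37 for rno-miR-383-5p, with limma adjusted p from 0.906 to 0.983.

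Guides whose seed is the family's moved by 1 base were set beside the members because most of the seed letters are shared. They are shown with bases 2 to 8 in capitals.
rno-miR-148a-3p: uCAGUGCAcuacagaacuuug
rno-miR-148b-3p: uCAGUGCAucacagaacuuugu
rno-miR-152-3p: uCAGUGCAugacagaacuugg
rno-miR-19a-3p: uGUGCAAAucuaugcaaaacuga
rno-miR-19b-3p: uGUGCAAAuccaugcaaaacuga
The miR-148 and miR-152 guides are known for repressing a DNA methyltransferase. All 5 were detected on every array and had higher means in DEX, as did 59.2% of all tested miRNAs, with a median log2 difference of 0.17 against 0.044 over all. Of these, 0 passed the adjusted threshold in limma (0% of all tested), and 0 had an unadjusted p under 0.05 (2.98% of all tested). The log2 difference ranged from 0.043 ± 0.17 (SE) for rno-miR-19a-3p to 0.20 ± 0.18 for rno-miR-148a-3p. Within slide 2 it was below 0 for all 5, from -0.33 to -0.0056. These 5 values share a single Control array, Control 5, so they are not 5 separate results. The share of all tested miRNAs below 0 within slide 2 is not given here. Rno-miR-148b-3p, also dim, ranged from 4.74 to 14.5 in Control and from 7.91 to 19.2 in DEX. As a description, r with rno-miR-301b-3p was 0.723 for rno-miR-19a-3p, 0.693 for rno-miR-148b-3p, 0.663 for rno-miR-152-3p, 0.457 for rno-miR-19b-3p and 0.33 for rno-miR-148a-3p.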

How the data were processed

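Total RNA (RNeasy mini kit per the labels, miRNeasy per the methods) was labelled with Cy5 and hybridized to 3D-Gene rat miRNA chips. Per the file headers, the deposited intensity is the median brightness of a spot, and the authors merged several scanner gains. The authors' deposited value table is a score: intensity over blank, scaled per array and rounded, linear and uncentred, with column medians from 15 to 18. Scores rebuilt here fell within 0.51 of 99.98% of 5038 values. Versions of the scanner and extraction software were not given in the sources used here.

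From the deposited intensity, the blank mean (trimmed by 5%) was subtracted, arrays were scaled to a median of 25 over detected miRNAs, undetected miRNAs were floored, and log2 was taken. A limit of the blank mean plus 2 SD differed from the table in 2 of 7610 detection calls. The scanner's background column followed the signal (r = 0.953 to 0.984 by array), so normexp on it was run as an alternative only. The 503 miRNAs with detection on 5 or more arrays entered limma 3.58.1 (R 4.3.3; Benjamini-Hochberg), after a check on simulated data. That check set no limit for recovery of 1.5-fold differences, so it does not show that differences of that size would be called. Correlations used 100000 permutations within groups, two-sided, and arm differences an exact permutation test. Groups and replicate numbers came from the labels and slides from the chip identifiers, and 0 columns of per-sample values were left unused. The number of arrays limits the precision. Members, lists and tests were chosen with earlier results of these data known. Named miRNAs were the members, any chip miRNA with the seed of rno-miR-301b-3p, 5 relatives with a shifted seed and the 5 with the highest r. Alternatives covered background, scaling, source of values, filter, floor, model, slide, replicate number, the test of the methods and leaving out each array. Slides 1 and 3 held a single group each, so slide as a fixed term gives the difference within slide 2 again. Plots came from matplotlib 3.10.9 (Python 3.11.15).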

Additional observations from a re-analysis of the deposited data

Results flagged for a closer look

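A single array stood far from the rest of its group in 2 of 26 sets of 5 values checked, where chance flags about 1 in 20 sets. For rno-miR-130b-3p, Control 3 was lowest by 0.716 of the range of the Control log2 values (critical value 0.71). For the 3p minus 5p difference of rno-miR-130b, DEX 5 was highest by 0.721 of the DEX range. Outside the comparisons, the spots that carry no probe had a median signal above blank of 37.7 (DEX 4) and 28.8 (DEX 5), against 6.62 to 10.2 on the Control arrays and -0.797 to 5.67 on DEX 1, DEX 2 and DEX 3. DEX 4 and DEX 5 made up slide 3, and the part of this signal in the members' values was not tested.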

How the results depend on the processing

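No miRNA and no member passed the adjusted threshold in limma under any of 26 alternatives (smallest adjusted p 0.0609 to 0.998), while the count before adjustment, 15, ran from 6 with no background correction to 36 without Control 5. The methods' t-test at its p and fold limits, run on the values processed here, called 8 of 503 miRNAs. So few calls make 0 of the 6 tested members uninformative for the family, and 0 remained after Benjamini-Hochberg adjustment. With replicate number as a block there were 0 adjusted and 35 unadjusted calls. Same-numbered arrays did not deviate together (correlations -0.081 to 0.11), so were not taken as pairs. Slide as a fixed term repeats the values within slide 2 (1 Control array). Signs turned with it for rno-miR-301a-3p (-0.26), rno-miR-130b-3p (-0.18), rno-miR-130a-3p (-0.15) and rno-miR-130b-5p (0.24), and without scaling for rno-miR-130a-3p (-0.072), rno-miR-130b-3p (-0.029) and rno-miR-130a-5p (-0.14). Normexp turned rno-miR-130a-3p (-0.089) and the miR-130a arm difference (-0.102). Rno-miR-130a-5p also turned with quantile normalization (-0.032), undetected values missing (-0.083), a floor only at or below 0 (-0.10), array weights (-0.13) and without slide 3 (-0.055). For r with rno-miR-301b-3p, rno-miR-301a-3p passed the adjusted threshold with values as they are (0.774) and without scaling (0.795). Values as they are keep the group difference on which rno-miR-301b-3p was chosen, so that pass cannot be read apart from it. Without scaling, brightness differences between arrays stay in the deviations, and r was higher for all 5 members than with scaling. Rno-miR-130a-5p passed the threshold with normexp (0.878). The sign of r turned, past the adjusted threshold, with normexp for rno-miR-130b-5p (0.844), rno-miR-130a-3p (-0.726) and rno-miR-130b-3p (-0.809). It also turned for rno-miR-130b-5p without scaling (0.416), and for rno-miR-130a-3p and rno-miR-130b-3p without Control 3 and Control 4 (-0.0852 and -0.0276). Leaving out Control 1 and Control 2 was chosen after seeing the data, and turned no sign. The causes were not tested. Leaving out each array in turn, the log2 difference ran from 0.47 to 0.75 for rno-miR-301b-3p, 0.18 to 0.44 for rno-miR-301a-3p, 0.033 to 0.25 for rno-miR-130b-3p, 0.056 to 0.22 for rno-miR-130a-3p, -0.48 to -0.24 for rno-miR-130b-5p and -0.083 to 0.26 for rno-miR-130a-5p. Likewise r ran from 0.62 to 0.932 for rno-miR-301a-3p, past the adjusted threshold without Control 5, 0.457 to 0.863 for rno-miR-130a-5p, 0.00183 to 0.483 for rno-miR-130b-3p, 0.0624 to 0.537 for rno-miR-130a-3p and -0.355 to 0.292 for rno-miR-130b-5p, and the arm difference from 0.316 to 0.731 for miR-130b and -0.138 to 0.226 for miR-130a. Signals near the floor limit rno-miR-301b-3p and both tested 5p arms.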
